A study of Nothobranchius furzeri with 10 samples.

Results

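The 200 genes described here were the ones whose messenger RNA differed most between brain samples of the turquoise killifish (Nothobranchius furzeri). They were taken from well-expressed genes of intermediate length. Of 26739 genes in the count table, 9463 met the limits on level and length, namely a mean of at least 10 CPM (counts scaled to a common library size), a place outside the 200 genes of highest mean CPM, a value above 0 in all 10 libraries, and a length of 1000 to 8000 bases. Among these 9463 eligible genes, the 200 with the largest standard deviation (SD) of log2(CPM + 0.5) over the 10 libraries were taken, with the treatment groups ignored. The SD therefore chose the members and is given only as a description. A difference between the groups adds to that SD.

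RNA sequencing was done on brain of male fish of the strain MZM-0410p at 22 weeks of age. Of the 10 samples, 5 are labelled as given synthetic miR-101a at 100 pmol and 5 as given a scrambled control. The design text of the series calls the agent an antagomiR, an inhibitor of a microRNA, so neither addition nor inhibition of miR-101a was assumed. The names miR-101a and scrambled stand for the label of a sample only. The labels give no route of delivery and do not state that each sample is another fish. Every p-value below is therefore set against the variation among these 10 samples, part of which may be technical.

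A microRNA guides a silencing complex to messenger RNAs with partly complementary sites, which are then less stable and less translated. RNA from whole brain pools neurons, glia, vessels and other cells, and the level of a gene in such a sample depends both on how many cells of a type it holds and on how much RNA each of them makes. In bulk samples these cannot be told apart, for any of the genes below. Genes whose levels move together over samples are said to be co-expressed, and such sets are commonly used to describe structure in brain transcriptomes. Genes appear in the deposited tables under identifiers without symbols, and 0 of these were found among 38438 genes of a reference annotation. No function is therefore given for any gene, and identifiers are printed for only a few members chosen by rule.

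Libraries held 19598030 to 27086488 counts. The members took 0.549% to 0.953% of the counts of a library, the least in miR-101a replicate 1 and the most in scrambled replicate 5. MiR-101a replicate 5 stood apart from the other libraries before any result is considered. The median distance of a member from its own median over the 10 libraries was 1.01 on the log2 scale in that library and 0.436 to 0.657 in the others, and over all eligible genes it was 0.12 in that library and 0.0628 to 0.0755 in the others.

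The members spanned a wide range of spread. Their SD of log2(CPM + 0.5) ran from 0.597 to 3.33 with a median of 0.775, against a median of 0.117 over all eligible genes. The highest library exceeded the lowest by more than 4-fold in 154 of the 200 members and by more than 10-fold in 45. The number of reads counted sets only a small part of this spread. The SD expected from counting alone had a median of 0.0828, and it amounted to a median of 0.835% and at most 3.87% of the variance of a member. At the threshold the values were continuous, with an SD of 0.5966 for the last member inside, Nfu_g_1_011134, and 0.5958 for the first gene outside, Nfu_g_1_007020.

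Members were not evenly spread over the eligible genes. They made up 4.39% of the 2279 genes with a mean of 10 to 20 CPM and 0.704% of the 1562 genes with a mean of at least 100 CPM. Per kilobase of length, the median level of the members was 7.04 CPM per kilobase, against 11.8 over all eligible genes. Length differed little, with a median of 3184 bases in the members and 3376 bases over the eligible genes. The rule itself uses the level and the length as limits, so these values describe what it selected.

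Some members had a sharp step between libraries. In 23 members the widest step between neighbouring libraries, once the 10 values were put in order, was more than 4-fold, and in 12 members at least 1 library lay below 1 CPM. The 23 genes showed 16 different patterns of libraries below the step, of which 12 occurred in a single gene. In 0 of the 16 patterns were the libraries below the step exactly the libraries of a treatment group. Only 3 of the 23 genes had 5 libraries below the step and could have matched a group. The commonest pattern, with miR-101a replicates 1 and 5 below the step, was shared by 5 members, whose values there were at most 2.06 CPM and elsewhere at least 5.74 CPM.

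The 4 members of largest SD illustrate these steps. Nfu_g_1_002728 also had the highest mean CPM of all members, and was measured at 0.593, 274, 204, 616 and 1.44 CPM in miR-101a replicates 1 to 5 and at 431, 496, 330, 203 and 207 CPM in scrambled replicates 1 to 5. All 5 scrambled libraries and the other 3 miR-101a libraries thus held it at over 200 CPM. Nfu_g_1_017941 shared the libraries of near absence, with 0.0456, 27.9, 26.3, 14.4 and 0.195 CPM in the miR-101a group and 21.4, 95.7, 38.2, 61.6 and 29.7 CPM in the scrambled group. The lowest of these values rests on 1 read.

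Nfu_g_1_009223 was also near absent in miR-101a replicates 1 and 5, and in miR-101a replicate 4 and scrambled replicate 4 as well. It was measured at 0.821, 56.7, 52.7, 1.29 and 1.32 CPM in the miR-101a group and at 61.2, 53.9, 57.7, 0.987 and 89.4 CPM in the scrambled group. Low values thus occurred in both groups, in 3 miR-101a libraries and 1 scrambled library. Nfu_g_1_018656 was low in most libraries, with 20.3, 10.6, 0.591, 1.2 and 26.0 CPM in the miR-101a group and 0.51, 0.59, 1.17, 0.423 and 49.6 CPM in the scrambled group. Its high values were found in 3 miR-101a libraries and in scrambled replicate 5, and the groups overlapped in all 4 genes.

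**Figure D1:**
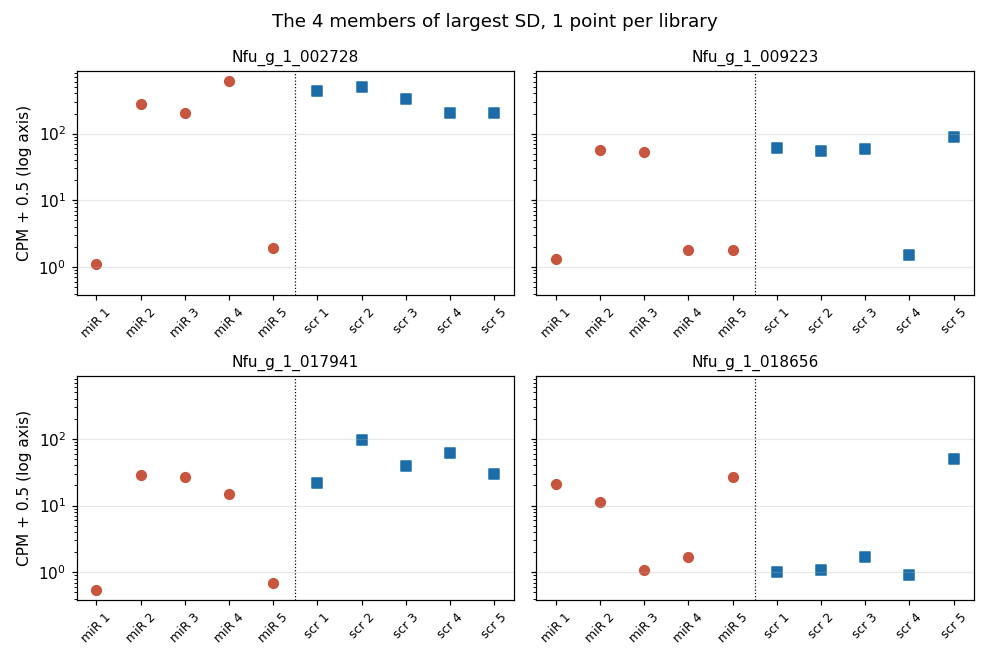
Level of the 4 members of largest SD in each library, as CPM + 0.5 on a log axis, with circles for miR-101a (miR) and squares for scrambled (scr) replicates 1 to 5. Each gene is low in some libraries only. Nfu_g_1_002728, Nfu_g_1_017941 and Nfu_g_1_009223 are all low in miR-101a replicates 1 and 5. Nfu_g_1_009223 is also low in miR-101a replicate 4 and scrambled replicate 4. Nfu_g_1_018656 is low in miR-101a replicates 3 and 4 and in scrambled replicates 1 to 4.

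The greater part of the members belonged to sets of genes whose levels varied together. Average-linkage clustering on Pearson correlation over the 10 libraries, with the tree cut at 0.3 (a mean correlation of about 0.7 between merging clusters) and a minimum of 8 genes, gave 4 sets that held 116 of the 200 members. Another 20 clusters had 2 to 6 members, and 21 members stood alone. Correlations above 0.7 made up 13.1% of all pairs of members, 10.3% of pairs among the next 200 genes by SD, and 2.6% of pairs over all eligible genes. All genes share the same 10 libraries, so these correlations are descriptions. The sets were chosen from the values they describe and were not tested. The sharpest steps lay mostly outside them, since 4 of the 23 genes with a step of over 4-fold and 1 of the 10 members of largest SD fell in a set.

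**Figure D2:**
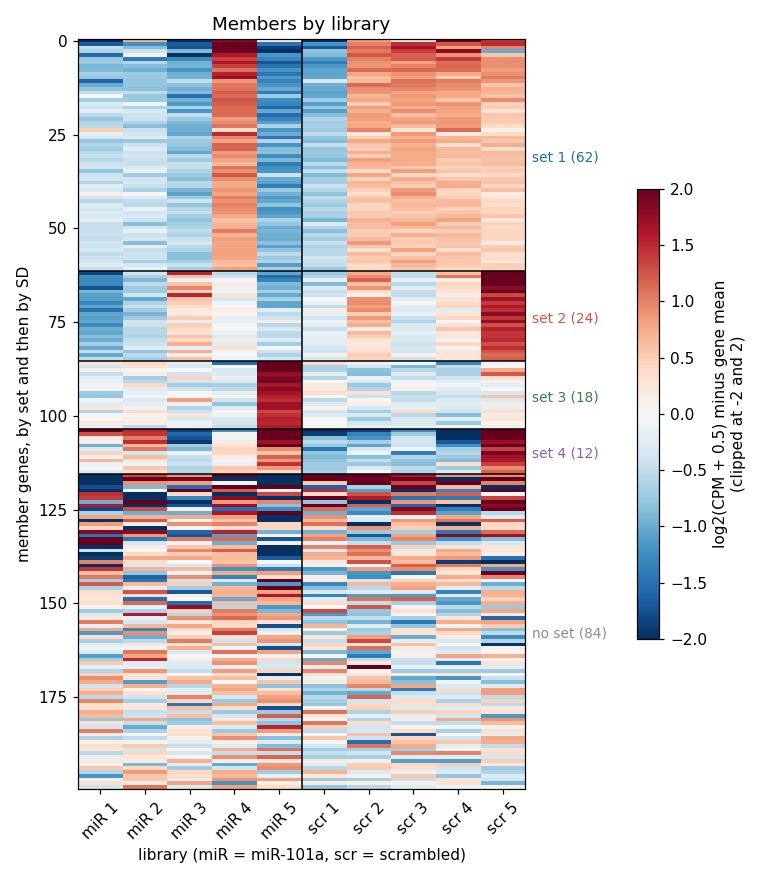
All 200 members (rows, by set and then by SD) in the 10 libraries (columns), coloured by log2(CPM + 0.5) minus the mean of the gene and clipped at -2 and 2. Set 1, with 62 genes, is high in miR-101a replicate 4 and scrambled replicates 2 to 5 and low in the other 5 libraries, while sets 2, 3 and 4 are led by scrambled replicate 5, miR-101a replicate 5 and both of these.

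The largest set, called set 1, held 62 genes, 31% of the members, with a median pairwise correlation of 0.946. Relative to the mean of each gene, the median log2 level of the set was -0.47, -0.44, -0.79, 0.95 and -1.09 in miR-101a replicates 1 to 5 and -0.72, 0.66, 0.74, 0.65 and 0.52 in scrambled replicates 1 to 5. The libraries fell on either side of a wide gap, with miR-101a replicate 4 and scrambled replicates 2 to 5 above it. In miR-101a replicate 4 and scrambled replicates 2, 3 and 4, all 62 genes lay above their own mean, and in scrambled replicate 5 this held for 61. In each of the other 5 libraries at most 3 of the 62 did. The summed level of the 62 genes was 789.6 CPM in miR-101a replicate 5, the lowest, and 3116 CPM in miR-101a replicate 4, the highest, so that a single treatment group held both ends.

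The gene nearest to the rest of set 1, Nfu_g_1_002518, had a mean correlation of 0.956 with them. It was measured at 38.0, 37.0, 30.7, 111 and 26.8 CPM in the miR-101a group and at 35.3, 94.8, 103, 105 and 81.8 CPM in the scrambled group. The values were thus 26.8 to 38.0 CPM in 5 libraries and 81.8 to 111 CPM in the other 5, with none between, and each group had libraries on both sides.

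The balance of long and short genes differed between libraries in the same order of sides as set 1. For each library the median deviation of log2(CPM + 0.5) from the gene mean over 1147 genes longer than 8000 bases was compared with that over 1436 genes shorter than 1000 bases, none of them members. Long minus short was -0.0415, -0.0134, -0.0891, 0.0967 and -0.183 in miR-101a replicates 1 to 5 and -0.0586, 0.0648, 0.087, 0.0818 and 0.0143 in scrambled replicates 1 to 5. It was above 0 in exactly the 5 libraries in which set 1 was high. The part of this balance in set 1 was not tested, and the genes of set 1 were themselves of ordinary length, with a median of 3379 bases against 3376 for all eligible genes. Total counts were 21275174 to 25598103 where set 1 was high and 19598030 to 27086488 where it was low, and their part was not tested either.

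**Figure D3:**
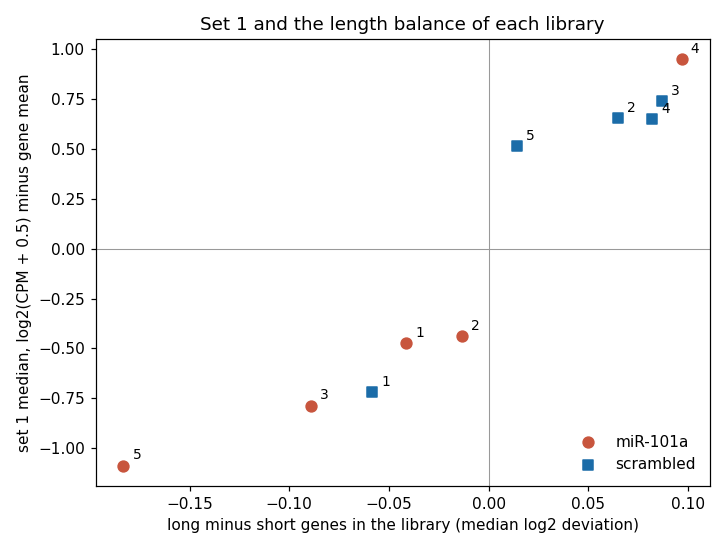
Each point is a library, with the difference between long and short genes (median log2 deviation, x axis) and the median of set 1 (log2(CPM + 0.5) minus gene mean, y axis), numbered by replicate. The 5 libraries with set 1 above 0 are those with a long minus short value of 0.0143 to 0.0967, and miR-101a replicate 5 is lowest on both axes.

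The pattern of set 1 reached genes that the rule did not admit. A correlation above 0.9 with its mean profile was found in 195 (2.11%) of the 9263 eligible genes not chosen, whose median SD was 0.316, and in 149 (2.59%) of 5745 genes with a mean of 1 to 10 CPM. Among genes outside the length window it was found in 135 (12.1%) of 1112 longer genes and in 13 (0.937%) of 1388 shorter ones. Correlations below -0.9 were fewer, with 11 (0.119%) of the eligible genes not chosen. These counts extend the description to genes of smaller spread, and the longer genes counted here also enter the long minus short value of each library.

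Set 2 held 24 genes with a median pairwise correlation of 0.918 and was led by scrambled replicate 5. Its median was -1.04, -0.59, 0.49, -0.10 and -0.59 in miR-101a replicates 1 to 5 and -0.24, 0.59, -0.32, 0.27 and 1.49 in scrambled replicates 1 to 5. All 24 genes were above their mean in scrambled replicates 2 and 5, and 23 had their highest value in scrambled replicate 5, while 19 had their lowest in miR-101a replicate 1. Scrambled replicate 5 stood clear of the next library, scrambled replicate 2, and the other 9 libraries were spread between -1.04 and 0.59. The summed level ran from 355.1 CPM in miR-101a replicate 1 to 2357 CPM in scrambled replicate 5.

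Its most typical gene, Nfu_g_1_010479, was measured at 17.6, 24.9, 44.3, 33.3 and 25.6 CPM in the miR-101a group and at 33.8, 58.3, 32.8, 43.4 and 100.7 CPM in the scrambled group. The groups overlapped between 32.8 and 44.3 CPM. The median length of set 2 was 4106 bases, the longest of the 4 sets.

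Set 3 held 18 genes with a median pairwise correlation of 0.81, and all 18 had their highest value in miR-101a replicate 5. The median of the set was 1.67 in that library and between -0.37 and 0.12 in the other 9. Nfu_g_1_006595, nearest to the rest of the set, stood at 44.4, 48.0, 35.3, 34.3 and 130 CPM in the miR-101a group and at 42.6, 26.2, 35.5, 37.0 and 52.0 CPM in the scrambled group. The set thus marks a single library, the one that stood apart over all eligible genes.

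Set 4 held 12 genes with a median pairwise correlation of 0.853, highest in scrambled replicate 5 (median 1.68) and miR-101a replicate 5 (median 1.31). All 12 genes were above their mean in both libraries. The median was 0.08, 0.64, -0.68 and 0.18 in miR-101a replicates 1 to 4 and between -0.80 and -0.61 in scrambled replicates 1 to 4. Scrambled replicate 5 was the highest library for 11 of the 12 genes. Nfu_g_1_013998, nearest to the rest, was measured at 7.34, 13.1, 5.87, 9.26 and 19.3 CPM in the miR-101a group and at 4.24, 4.4, 5.29, 4.79 and 27.1 CPM in the scrambled group. Nfu_g_1_018656, with its step of over 4-fold, and Nfu_g_1_011134, the last member inside the threshold, also belonged to this set.

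**Figure D4:**
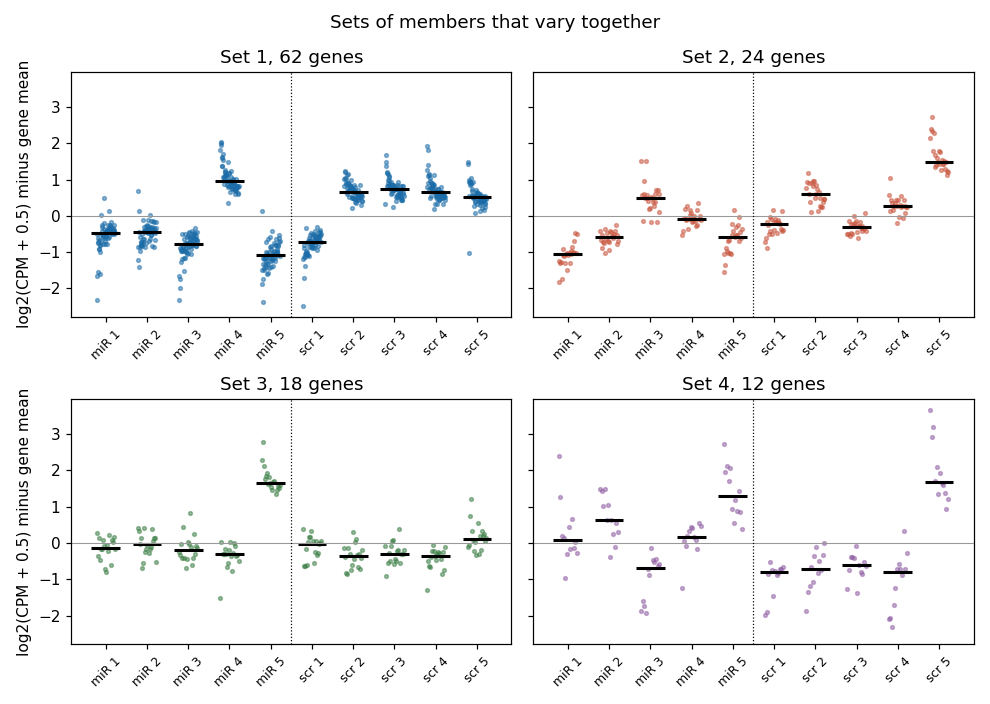
Log2(CPM + 0.5) minus gene mean for each gene (points) of the 4 sets in each library, with the median as a black bar. Set 1 falls into 5 high and 5 low libraries, set 2 has scrambled replicate 5 (median 1.49) above the other 9 libraries (-1.04 to 0.59), set 3 is high in miR-101a replicate 5 (1.67) and set 4 is high in scrambled replicate 5 (1.68) and miR-101a replicate 5 (1.31).

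The mean profiles of the sets were distinct over the 10 libraries. The largest correlation between them was 0.62, for sets 3 and 4, which share their high value in miR-101a replicate 5, and the lowest was -0.561, for sets 1 and 3. Some of the smaller clusters of 5 or 6 genes also followed particular libraries. One cluster of 6 genes had a median of -2.34 in miR-101a replicate 1 and -2.56 in miR-101a replicate 5 and of 0.59 to 1.15 in the other 8 libraries. One of 5 genes had a median of -2.02 in miR-101a replicate 5 and of -0.27 to 0.76 in the others. Other clusters of 6 genes were spread over more libraries, with medians of -0.84 to 1.07 and of -1.27 to 0.82 over the 10 libraries.

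Single libraries often held the extreme values. A library was counted as apart in a gene by its gap to the next library, as a share of the range over the 10. That share had to exceed Dixon's 95% critical value. It did so in 29 of the 200 members, 14.5%, against 8.79% of the eligible genes. Among the next 200 genes by SD it did so in 28 (14%), close to the share of the members. MiR-101a replicate 5 was the library apart in 20 of these 29, above the others in 15 and below them in 5. That is 69.0% of the 29, and over the eligible genes the same library accounted for 66.5% of the 832 genes with a library apart. Without any such limit, the highest value of a member lay in miR-101a replicate 4 for 56 members, in scrambled replicate 5 for 42 and in miR-101a replicate 5 for 30. The lowest value lay in miR-101a replicate 5 for 58 members and in miR-101a replicate 1 for 36. Set 1 held 45 of the 56 and 39 of the 58, and set 3 held 18 of the 30. Of the 42, 23 were in set 2 and 11 in set 4, and set 2 held 19 of the 36. These counts are thus not separate from the sets. Over all eligible genes miR-101a replicate 4 was highest in 8.85%, scrambled replicate 5 in 8.56% and miR-101a replicate 5 in 19.96%. The lowest value lay in miR-101a replicate 5 for 21.8% of eligible genes and in miR-101a replicate 1 for 5.75%.

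Members varied more within the miR-101a group than within the scrambled group in 141 of 200 genes (70.5%), with a median SD of log2(CPM + 0.5) of 0.805 against 0.668. Over the eligible genes the same held for 60.4%. Without miR-101a replicate 5 the number was 128 of 200 (64.0%) in the members and the share was 48.2% over the eligible genes. The within-group spreads of members that move together are not separate observations, and no test was made.

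The comparison of the groups asked whether the genes that vary most between the brain samples differ by treatment. In edgeR's quasi-likelihood test over 19094 genes, 0 of the 200 members passed a Benjamini-Hochberg adjusted p of 0.05, against 0% of all genes tested, and the members' adjusted p began at 0.88. An unadjusted p below 0.05 was found for 23 members (11.5%), against 4.9% of all genes tested. Of these, 14 had the higher mean in the miR-101a group (7.0% of members, against 2.47% of all genes tested) and 9 in the scrambled group (4.5%, against 2.43%). DESeq2 called 0 of the 187 members to which it gave an adjusted p, and gave none to the other 13. Limma-voom, run with quality weights that differ between libraries, called 0 of 200. Over all genes these tools called 0.0662% and 0% of those with an adjusted p. At an unadjusted p below 0.05 DESeq2 had 32 of 187 members (17.1%), against 4.92% of all genes, and limma-voom had 51 (25.5%), against 7.11%. In DESeq2, 15 were higher in the miR-101a group (8.02%, against 2.4% of all genes) and 17 lower (9.09%, against 2.51%). In limma-voom, 10 were higher (5.0%, against 2.9%) and 41 lower (20.5%, against 4.21%). Of the 51, 31 were in set 1, where edgeR had 2. The direction in which more members lay thus differed between the tools. A group difference adds to the SD that chose the members, and 116 of the 200 lie in 4 sets that vary together. The shares of members at an unadjusted p are therefore descriptions only.

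The edgeR count at an unadjusted p below 0.05 depended on single libraries, although 0 members passed the adjustment when any of the 10 was left out. It was 77 without miR-101a replicate 4, where 9.64% of all genes had such a p, and 39 without scrambled replicate 1, against 6.55% of all genes. Of the 77, 12 were higher in the miR-101a group (6.0%, against 3.47% of all genes) and 65 lower (32.5%, against 6.17%). The count was 15 without miR-101a replicate 1, 13 without miR-101a replicate 5 and 14 without scrambled replicate 2. The shares of all genes there were 4.59%, 3.86% and 4.12%. In set 1, 2 genes had an unadjusted edgeR p below 0.05 with all libraries, 59 without miR-101a replicate 4 and 21 without scrambled replicate 1. Those are the libraries that lay on the other side of the gap from the rest of their group. Whether their labels were exchanged or their set 1 levels differed for another reason cannot be told apart in these files, and each comparison of set 1 between the groups rests on the labels as given. In set 2 the number was 7 with all libraries and moved both ways with a library left out. It rose to 18 without miR-101a replicate 3 and to 14 without scrambled replicate 3, against 5.16% and 3.28% of all genes. It was 11 without scrambled replicate 1 and 8 without scrambled replicate 4, against 6.55% and 3.9% of all genes. It fell to 2 without scrambled replicate 5, the library that led the set, against 6.06% of all genes. The number was also 2 without miR-101a replicate 1, 2 or 5, against 4.59%, 4.28% and 3.86% of all genes. It was 3 without scrambled replicate 2 and 5 without miR-101a replicate 4, against 4.12% and 9.64% of all genes. In set 4 the number was 0 with all libraries. Without scrambled replicate 5 it was 9 of 12, all higher in the miR-101a group. It was 0 without any other single library.

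The direction of the group difference was common to all genes in 3 of the 4 sets. The log2 fold change, miR-101a minus scrambled, was negative in 121 members and positive in 79, with a median of -0.42 over the members against 0.0021 over all genes tested. It was negative in all 62 genes of set 1 (median -0.62) and all 24 of set 2 (median -0.84), and positive in all 18 of set 3 (median 0.59). In set 4 it was positive in 9 genes and negative in 3 (median 0.21). Genes of a set share their libraries, so the genes of a set are not separate observations of its direction. For the median of set 1 the group averages were -0.37 ± 0.78 with miR-101a and 0.37 ± 0.61 with the scrambled control (SD, n = 5 each), and each group reached into the range of the other. For set 2 the averages were -0.37 ± 0.58 and 0.36 ± 0.73 (SD, n = 5 each), and for set 3 they were 0.20 ± 0.82 and -0.19 ± 0.22 (SD, n = 5 each). Without miR-101a replicate 5 the difference of set 3 was 0.0222 in place of 0.388. Without scrambled replicate 5 the difference of set 2 was -0.444 in place of -0.727. That of set 4 was 0.551, with 0.3 without miR-101a replicate 5 and 1.03 without scrambled replicate 5.

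**Figure D5:**
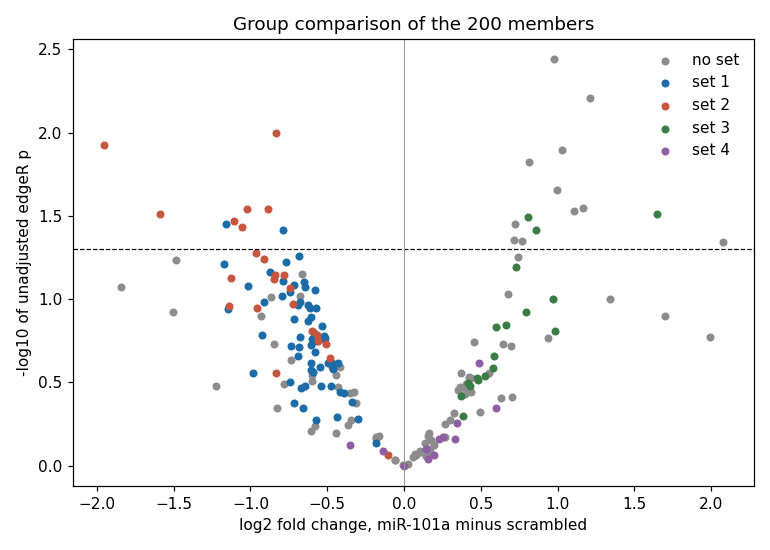
Log2 fold change between the groups (x axis) and -log10 of the unadjusted edgeR p (y axis) for the 200 members, coloured by set, with the dashed line at a p of 0.05. Sets 1 and 2 lie on the side lower in the miR-101a group and set 3 on the side higher in it, and 23 of the 200 genes are above the line, none of which passed the adjustment.

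The 5 libraries of a group all lay outside the range of the other in 1 of 200 members (0.5%), against 0.676% of all genes tested, a share near the background. With single libraries left out the number ran from 1 to 7, the highest without miR-101a replicate 4 (7 members, 3.5%, against 2.5% of all genes) and without scrambled replicate 5 (7 members, against 1.98%). With all libraries the gene was Nfu_g_1_020958, which also had the smallest p of any member, at 16.8, 22.1, 19.3, 35.8 and 42.7 CPM in the miR-101a group and 11.4, 11.7, 15.8, 16.2 and 14.4 CPM in the scrambled group. The nearest values of the groups were 16.8 and 16.2 CPM. Its log2 fold change was 0.97 ± 0.26 (standard error), and its adjusted p was 0.88 in edgeR and 0.0689 in DESeq2.

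The other members with the smallest p in each direction showed overlapping groups. Nfu_g_1_021660 was measured at 12.8, 9.78, 21.4, 24.6 and 20.3 CPM in the miR-101a group and at 7.35, 7.7, 6.62, 13.3 and 3.36 CPM in the scrambled group. The log2 fold change was 1.21 ± 0.35 (standard error), again at an adjusted p of 0.88 in edgeR. The overlap came from scrambled replicate 4, which lay above 2 of the miR-101a libraries.

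Nfu_g_1_004614, a gene of set 2, stood at 33.5, 47.2, 73.8, 68.7 and 44.7 CPM in the miR-101a group and at 74.8, 95.5, 72.8, 81.6 and 151 CPM in the scrambled group, with a log2 fold change of -0.83 ± 0.26 (standard error) and an adjusted p of 0.88 in edgeR. Only miR-101a replicate 3 reached the range of the scrambled group. Nfu_g_1_002693, also of set 2, stood at 3.6, 4.96, 8.68, 9.17 and 3.46 CPM against 8.42, 22.2, 8.53, 10.4 and 65.7 CPM, with a log2 fold change of -1.95 ± 0.64 (standard error) and an adjusted p of 0.88 in edgeR. Its scrambled mean of 23.1 ± 24.5 CPM (SD, n = 5) rests largely on replicate 5, without which the log2 fold change was -1.05.

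A modest part of the spread of the members lay between the treatment groups. Such a part is above 0 for almost any split of the libraries, and other splits were not compared. The share of the sum of squares of log2(CPM + 0.5) that lay between the groups had a median of 17.3% over the members, 13.9% over the next 200 genes by SD and 6.83% over all eligible genes. Over the members it was 24.4% without miR-101a replicate 4 and 13.4% without miR-101a replicate 5, the ends of the range over single libraries left out. The standard error of the median share of the members, from leaving out each library, was 11 percentage points. A group difference adds to the SD that chose the members, so their higher share than that of the eligible genes is not separate from the rule. The median share was 23.7% in set 1, 25.7% in set 2, 5.95% in set 3 and 7.06% in set 4. In all 4 sets most of the spread therefore lay between libraries of the same group.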

How the data were processed

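Libraries were made from total brain RNA with a TruSeq RNA kit, per the labels' protocols. Base calling with bcl2fastq 1.8.4, alignment with STAR 2.4.1d and counting with featureCounts 1.4.6-p4 are the tools listed in the submitters' processing notes. Build, annotation, strand setting and the handling of multiply matching reads are not given in the sources used, so overlapping genes and near-identical copies are uncertain. The authors deposited whole-number read counts per gene and a table of RPKM values for the same 10 libraries. Set against the counts in 8924 genes with a mean above 500, the deposited RPKM gave a constant gene length only with library totals running down the genes (median coefficient of variation 0.00163%, against 13.6% with own totals). They served only to derive lengths, for which each gene uses every total once.

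Samples were grouped by the perturbation label, and replicates 1 to 5 follow record order and only name libraries. Replicates differed by more than sampling noise (chi-square per degree of freedom 9.93 to 40.8). Counts were tested in edgeR 4.0.16 (R 4.3.3) with TMM, filterByExpr and robust quasi-likelihood fits on all 10 libraries, with p-values adjusted by Benjamini-Hochberg over 19094 genes. All 200 members passed that filter. The standard error of a fold change is its size over the square root of F. Descriptions used Python 3.11.15, numpy 2.4.6, pandas 2.3.3 and scipy 1.17.1, and the steps were tested on simulated data. Alternatives were other size factors and filters, DESeq2 1.42.0, limma-voom (limma 3.58.1), other pseudocounts, measures of spread and tree cuts, a block on title numbers, and leaving out each library.

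Genes given by identifier are the 2 members of smallest p in each direction, the 4 of largest SD, the highest mean CPM, the genes at the threshold and the most typical gene of each set. The members, this rule and the tests were chosen with earlier results of these data known. Marker lists could not be matched without symbols and gave no result, and no sequence was used.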

Additional observations from a re-analysis of the deposited data

Results flagged for a closer look

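Each of 21 measures (the CPM of 13 members given by identifier, 4 measures of libraries and the medians of the 4 sets) was searched in each group for a library at one end whose distance to the next exceeded 0.71 of the group's range. About 1 in 20 groups of normally distributed values would meet this by chance, and 10 of 42 did. The members were chosen for their spread and share libraries, so the number has no chance value to be set against.

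Scrambled replicate 5 lay above the rest of its group in 5 genes. Its values were 151 CPM for Nfu_g_1_004614 (others 72.8 to 95.5), 65.7 CPM for Nfu_g_1_002693 (others 8.42 to 22.2) and 49.6 CPM for Nfu_g_1_018656 (others 0.423 to 1.17). They were 83.6 CPM for Nfu_g_1_011134 (others 22.9 to 36.5) and 27.1 CPM for Nfu_g_1_013998 (others 4.24 to 5.29). The median of set 4 in that library was 1.68, against -0.799 to -0.609 in the other scrambled libraries.

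In miR-101a replicate 4, Nfu_g_1_002518 was measured at 111 CPM, against 26.8 to 38.0 CPM in the rest of its group. In scrambled replicate 1 the median of set 1 was -0.719, against 0.516 to 0.739 in the rest of its group. In miR-101a replicate 5, Nfu_g_1_006595 was measured at 130 CPM (others 34.3 to 48.0) and the median of set 3 was 1.67 (others -0.302 to -0.0292).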

How the results depend on the processing

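Members past an adjusted p of 0.05 numbered 0 in edgeR, and 0 with other size factors, other filters and each library left out. In DESeq2 (187 members with an adjusted p) and limma-voom they numbered 0 as well. The threshold of 0.1 was applied in edgeR only and gave 0, while in DESeq2 Nfu_g_1_020958 had an adjusted p of 0.0689. The 6 libraries whose title numbers occur in both groups gave 62 members past 0.05 with a replicate block on that number (1.74% of all genes). Without a block they gave 52 (1.9%). Same-numbered libraries did not deviate together as a whole (correlations -0.06, 0.04 and -0.22). Whether they have more in common than the number, for instance in a smaller part of the genes, was not tested. These 6 libraries include neither miR-101a replicate 4 nor scrambled replicate 1, and 51 of the calls of either fit were in set 1. The number at an unadjusted p below 0.05 was 98 with the block, 67 without it and 51 in limma-voom, against 10.2%, 9.16% and 7.11% of all genes, and 13 to 77 with single libraries left out. Members with groups that did not overlap numbered 2 with TMM-scaled sizes (0.655% of all genes) and 1 to 7 with a library left out (1.02% to 2.5% of all genes). A gap above 0.6 of the range set a library apart in 15 members. The cause of these changes was not tested.

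Of the 200 members, 147 to 200 were also chosen under 16 changes of the rule, the fewest with the median absolute deviation, and 165 with no limit on length. Without miR-101a replicate 5 there were 166. Set 1 kept 61 or 62 of its 62 genes together under 12 other settings of the clustering, and the sets held 100 to 135 members. The fold changes of the 4 genes picked by p had the same sign in all 72 alternatives run. The alternatives reused the libraries by which the genes were picked, so the unchanged sign is a description only. The fold change of Nfu_g_1_020958 was 0.31 with the block and 0.32 without it in the 6 libraries, in place of 0.97. Other pseudocounts for the overlap of the groups were chosen after seeing the data. So were the spread within groups, the spread over all libraries and the group differences of the 4 sets, each with libraries left out.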
